A study of Mus musculus with 15 samples.

Results

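The genes described here are the granule proteases Gzma, Gzmb, Gzmc, Gzmk and Gzmm, the pore-forming protein gene Prf1, the death ligand gene Fasl, the protease inhibitor genes Serpinb9 and Serpinb6b, and Srgn. They were chosen by symbol: a row of the count tables belonged to the group where the symbol before the chromosome suffix was 1 of these 10. All 10 were found among the 17493 genes of the tables. After a filter on low counts, 9 of them were tested together with the other genes, 10831 in all. Gzmk did not pass the filter and is given by its counts.

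A killer T cell stores granzymes in secretory granules and releases them onto a bound target cell. Perforin lets the granzymes enter the target, where they cleave proteins and start cell death. Fas ligand, the product of Fasl, starts death through the receptor Fas instead. Serpinb9 inhibits granzyme B and protects the killer cell from its own enzyme, Serpinb6b belongs to the same family of intracellular inhibitors, and serglycin, the product of Srgn, is the proteoglycan that holds granzymes inside the granule. In resting CD8+ T cells granule proteins are kept low, and antigen together with interleukin-2 is the textbook signal that raises them.

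The study measured RNA of mouse CD8+ OT-I T cells taken from lymph nodes and spleen of female OT-1 mice, C57BL/6-Tg(TcraTcrb)1100Mjb/Crl, in 15 libraries. The strain carries transgenes for 1 T cell receptor that recognises an ovalbumin peptide on MHC class I, so every group shares these transgenes. The 5 groups of 3 libraries were unstimulated cells at 0 h and cells exposed to immunofilaments (IF) or dendritic cells (DC), each for 8 h or 22 h. Immunofilaments are synthetic filaments, here carrying peptide-loaded MHC with interleukin-2 and added at 5 ng/ml, to wells of 50000 T cells. The DC wells held as many T cells and 20000 dendritic cells grown with Flt3 ligand and loaded with SIITFEKL, a variant of the ovalbumin peptide, and the labels name no interleukin-2 there. IF and DC therefore differ in the carrier of the antigen and in the labelled cytokine together, and their effects cannot be told apart. Viable CD8+ CD103- cells were sorted before lysis, a gate against dendritic cells, which can carry CD103; the labels do not say how many passed it. Replicates are those that the titles of every group number 1 to 3 after the letters Don. The labels do not say what these letters stand for or whether the libraries of a group came from separate animals, so p-values measure the spread between these libraries, which may be technical.

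Genome positions are those of GENCODE vM21 on GRCm38 (mm10). Gzmb (chr14:56258838-56262260) and Gzmc (chr14:56231441-56234656) are neighbours on the minus strand of chromosome 14, with 24181 bases between them. Gzma (chr13:113093825-113100981) and Gzmk (chr13:113171608-113225908) lie on the minus strand of chromosome 13, 70626 bases apart. Serpinb6b (chr13:32965209-32979067) and Serpinb9 (chr13:33003250-33017957) lie on its plus strand, 24182 bases apart. Gzmm (chr10:79689020-79695261, plus), Prf1 (chr10:61297833-61304680, plus), Srgn (chr10:62493833-62527451, minus) and Fasl (chr1:161780689-161788495, minus) stand apart from these pairs. All 10 are protein-coding and none shares exonic bases with another gene of the annotation. The counts come from the 3′ ends of transcripts. Over the last 300 bases, the transcripts of Gzma, Gzmb, Gzmc, Serpinb9 and Serpinb6b were 44.6% to 52.4% identical to the family members they were compared with, with no identical stretch longer than 10 bases.

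Promoter sequence is shown for Gzmb and Gzmc, whose DC libraries all lay above all IF libraries, and for Gzma and Gzmm, which fell, because these granzymes of the same granule did not move together. Each line gives the 250 bases before the RefSeq transcription start on GRCm38.p6, read 5′ to 3′ along the gene's own strand: Gzmb chr14:56262335-56262584 (minus), Gzmc chr14:56234658-56234907 (minus), Gzma chr13:113100982-113101231 (minus) and Gzmm chr10:79688770-79689019 (plus). Capitals mark matches, on either strand, to the motifs searched.
Gzmb: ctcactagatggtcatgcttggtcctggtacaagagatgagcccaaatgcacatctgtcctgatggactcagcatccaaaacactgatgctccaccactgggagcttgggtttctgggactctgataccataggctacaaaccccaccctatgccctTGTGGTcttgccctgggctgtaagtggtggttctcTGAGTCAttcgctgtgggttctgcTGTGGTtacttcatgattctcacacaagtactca
Gzmc: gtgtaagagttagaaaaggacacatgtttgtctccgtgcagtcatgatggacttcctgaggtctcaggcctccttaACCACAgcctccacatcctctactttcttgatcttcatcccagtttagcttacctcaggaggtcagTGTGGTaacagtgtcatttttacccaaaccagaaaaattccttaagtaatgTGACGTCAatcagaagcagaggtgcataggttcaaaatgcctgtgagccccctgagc
Gzma: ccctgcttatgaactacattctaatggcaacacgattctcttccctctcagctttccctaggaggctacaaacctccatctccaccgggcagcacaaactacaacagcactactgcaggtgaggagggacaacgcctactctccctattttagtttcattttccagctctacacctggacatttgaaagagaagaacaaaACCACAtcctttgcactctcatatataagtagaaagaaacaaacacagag
Gzmm: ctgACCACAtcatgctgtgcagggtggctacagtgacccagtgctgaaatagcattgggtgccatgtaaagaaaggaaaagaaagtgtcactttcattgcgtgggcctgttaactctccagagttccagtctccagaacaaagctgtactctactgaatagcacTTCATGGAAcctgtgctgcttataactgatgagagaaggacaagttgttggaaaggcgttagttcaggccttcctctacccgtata

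The RUNX motif TGTGGT, or its reverse complement, was in all 4 of these windows, in 5 of the 10 members' windows (Prf1 is the other) and in 14.2% of 27025 RefSeq promoters. An AP-1 motif, TGANTCA, was in the window of Gzmb alone among the 10, 58 to 52 bases before the start, between 2 RUNX matches; 6.87% of promoters hold it. The letters ACGTCA of a cyclic AMP response element were in Gzmc, where both strands match in 1 overlapping run, and in Prf1, against 6.56% of promoters. A STAT motif, TTCNNNGAA, was in Gzmm (7.18% of promoters), and a T-box motif, GGTGTGA, was in Gzmk (3.31% of promoters). RefSeq and GENCODE place the start of some of these genes differently, and a match of letters shows neither binding nor a cause.

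Total counts per library ran from 2892874 (IF 8 h replicate 2) to 19806730 (IF 22 h replicate 3). Levels below are normalised read counts (CPM, counts scaled to a common library total after TMM scaling), as mean ± SD over 3 libraries, and log2 fold changes have their standard error (SE) and an adjusted p from edgeR's quasi-likelihood test over all 10831 genes, with a threshold of 0.05. The T cell marker list, 6 of its 7 genes in the tables, summed to 7617 to 8283 CPM in the 3 unstimulated libraries and to 3516 to 5678 CPM in the 12 stimulated ones. IF 22 h replicates 2 and 3 stood apart: mitochondrial ribosomal RNA made up 0.179% and 0.146% of their counts against 1.82% to 4.49% in the other 13 libraries. In both, 127 of the 10831 genes were over 2-fold below every other library and 1 was over 2-fold above; 0 of the 9 tested members were among them. Fold changes at IF 22 h with an unadjusted p under 0.05 are given below with and without these libraries, where leaving them out keeps a single library in that group, assumed to vary like the others. In bulk RNA, fewer cells that express a gene and less RNA per cell cannot be told apart.

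Against unstimulated cells, 2 of the 9 tested members passed the test at IF 8 h (7.76% of all genes did), 1 higher (3.04% of all genes) and 1 lower (4.72%). At DC 8 h 4 passed (6.82%), 2 higher (2.75%) and 2 lower (4.07%). At IF 22 h it was 3 (6.08%), 2 higher (2.63%) and 1 lower (3.44%), and at DC 22 h it was 4 (7.76%), 1 higher (3.41%) and 3 lower (4.35%). Of the tested granzymes, Gzma passed as lower with both stimuli at both times. Gzmc passed as higher at DC 8 h and Gzmm as lower at DC 8 h and DC 22 h, while their direct differences between IF and DC did not pass at 8 h or 22 h (adjusted p = 0.219 and 0.268 for Gzmc, 0.377 and 0.42 for Gzmm). The median log2 fold change over the 9 was 0.09 (8 h) and 0.22 (22 h) with IF and 0.19 (8 h) and -0.28 (22 h) with DC, beside medians over all genes of 0.02, 0.01, 0.04 and 0.04. These 4 comparisons share the same 3 unstimulated libraries. Scaled by library size alone, the median of all genes in them would be 0.22 to 0.37.

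**Figure D1:**
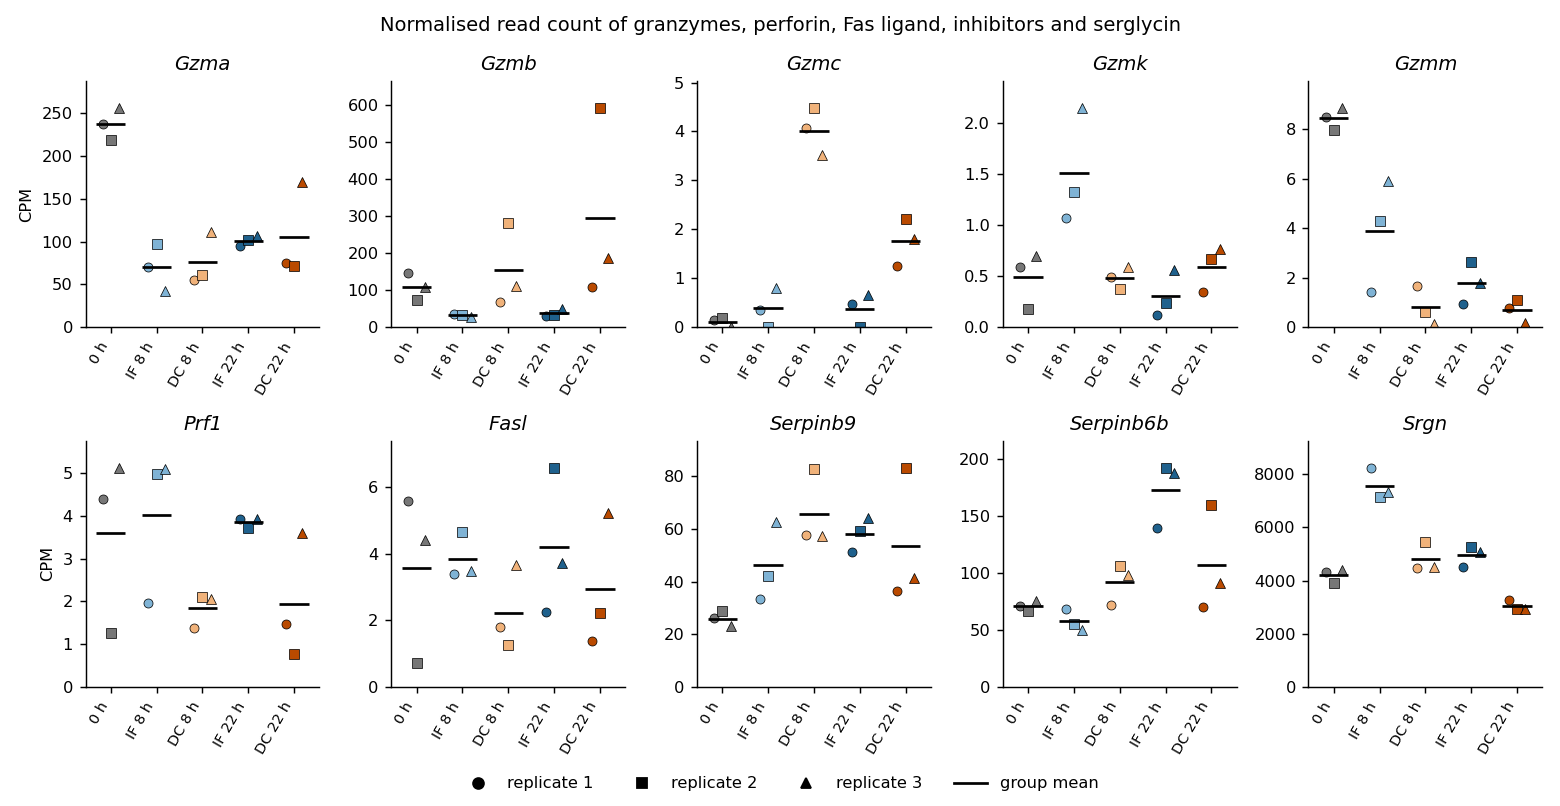
Normalised read count (CPM, linear axis from 0) of the 10 genes in each of the 15 libraries, with group means as bars and a marker shape for each replicate number. Gzma is highest in the 3 unstimulated libraries, Gzmb is lower in all 6 IF libraries than in any other, and Gzmc stands at 3.52 to 4.47 CPM in the DC 8 h libraries alone.

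Gzma, encoding a trypsin-like granzyme, passed the test as lower in every stimulated group. It stood at 237, 218 and 256 CPM in unstimulated cells (replicates 1, 2 and 3), at 70.3, 97.1 and 42.3 at IF 8 h, and at 55.4, 61.2 and 111 at DC 8 h. At 22 h it stood at 94.5, 102 and 106 CPM with IF and at 75.5, 71.8 and 170 with DC. All 12 stimulated libraries lay below all 3 unstimulated ones, and the highest of them was DC 22 h replicate 3. The mean of 237 ± 18.5 CPM dropped to 69.9 ± 27.4 at IF 8 h (log2 fold change -1.76, SE 0.34, adjusted p = 0.00513) and to 75.9 ± 30.7 at DC 8 h (-1.64, SE 0.34, adjusted p = 0.00688). These calls at 8 h held in every alternative run. At 22 h the mean was 101 ± 5.97 with IF (-1.23, SE 0.34, adjusted p = 0.038) and 106 ± 55.5 with DC (-1.16, SE 0.33, adjusted p = 0.0413). Scaled by library size alone, neither 22 h value passed (IF -1.03, adjusted p = 0.0709, and DC -0.84, adjusted p = 0.0941), and with only these groups in the fit the DC value did not (adjusted p = 0.0616). The IF 22 h call was lost without any 1 of its 6 libraries (adjusted p 0.0744 to 0.12) and without IF 22 h replicates 2 and 3 together (-1.32, adjusted p = 0.365). The DC 22 h call was lost without any library but DC 22 h replicate 3 (adjusted p up to 0.163), and without that library the value was lower and called (adjusted p = 0.00342). IF and DC did not differ in Gzma beyond their spread: -0.12 (SE 0.34, adjusted p = 0.987) at 8 h and -0.07 (SE 0.33, adjusted p = 0.956) at 22 h, where a negative value is lower with IF. The summed T cell markers were likewise lower in all 12 stimulated libraries than in the unstimulated ones, and their part in the lower Gzma, and in the lower Gzmm, Nkg7 and Ctsw below, was not tested.

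Gzmm, encoding a granzyme best known from natural killer cells, was low throughout and lowest with DC. It had 58, 44 and 38 counts in unstimulated libraries, that is 8.51, 7.95 and 8.84 CPM. With DC it stood at 1.68, 0.621 and 0.147 CPM at 8 h and at 0.797, 1.11 and 0.171 CPM at 22 h, from 1 to 17 counts a library. IF libraries lay between, at 1.43, 4.31 and 5.89 CPM at 8 h and 0.952, 2.63 and 1.79 CPM at 22 h. No stimulated library reached the unstimulated ones, while IF and DC libraries overlapped at both times. The drop passed the test at DC 8 h (-3.29, SE 0.78, adjusted p = 0.0163) and DC 22 h (-3.61, SE 0.79, adjusted p = 0.00973), and the DC 8 h call was lost without DC 8 h replicate 2 (adjusted p = 0.0744). Without DC 8 h replicate 1, the highest of its group, the DC 8 h value was -4.36 (adjusted p = 0.015). Values with IF were -1.14 (SE 0.72, adjusted p = 0.371) at 8 h and -2.23 (SE 0.73, adjusted p = 0.0832) at 22 h. The latter was -3.12 (adjusted p = 0.363) without IF 22 h replicates 2 and 3, and it passed with DESeq2 (adjusted p = 0.0232), with no filter on low counts (adjusted p = 0.0334) and with only these groups in the fit (adjusted p = 0.0147). The difference between IF and DC was 2.14 (SE 0.78, adjusted p = 0.377) at 8 h, or 3.22 (adjusted p = 0.229) without DC 8 h replicate 1, and 1.38 (SE 0.77, adjusted p = 0.42) at 22 h. Natural killer cell markers, 5 of 6 in the tables, summed to 10.9 to 18.6 CPM in unstimulated libraries, 8.81 to 10.7 at DC 8 h, 2.77 to 12.1 at DC 22 h, 12.3 to 16.6 at IF 8 h and 18.6 to 25.7 at IF 22 h. Klra8 was at 0 in every group and Ncr1 at 0 in IF 8 h, DC 8 h and DC 22 h; the part of such cells in the level of Gzmm was not tested.

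Gzmk, encoding another trypsin-like granzyme and the neighbour of Gzma, had 4, 1 and 3 counts in unstimulated libraries. The counts were 6, 4 and 8 at IF 8 h, 5, 3 and 4 at DC 8 h, 1, 2 and 11 at IF 22 h, and 3, 6 and 9 at DC 22 h. Scaled to the library, the IF 8 h libraries were the 3 highest, at 1.07 to 2.14 CPM, against at most 0.769 CPM in the other 12. These values are a description, since Gzmk did not pass the filter on low counts.

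Gzmb, encoding granzyme B, the main apoptosis-inducing granzyme, was present before stimulation, low with IF and variable with DC. It stood at 147, 73.0 and 108 CPM in unstimulated cells. With IF it was 36.6, 33.2 and 26.8 CPM at 8 h and 31.1, 33.7 and 48.9 at 22 h, and with DC 67.9, 282 and 113 at 8 h and 110, 591 and 187 at 22 h. All 6 IF libraries lay below all unstimulated and all DC libraries, and replicate 2 was the highest of the DC libraries at both times. At 22 h Gzmb was lower with IF than with DC, 37.9 ± 9.62 against 296 ± 259 CPM (-2.96, SE 0.56, adjusted p = 0.00804). Without DC 22 h replicate 2 the difference was -1.97 (SE 0.43, adjusted p = 0.0232). The call was lost without IF 22 h replicate 2 (-2.88, adjusted p = 0.0554), without IF 22 h replicates 2 and 3 together (-3.25, adjusted p = 0.321) and with only these groups in the fit (adjusted p = 0.0683).

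At 8 h the same difference was -2.26 (SE 0.55), with means of 32.2 ± 4.96 CPM for IF and 154 ± 113 for DC, and missed the threshold (adjusted p = 0.0809). It passed with DESeq2 (adjusted p = 0.0349), without DC 8 h replicate 1 (-2.61, adjusted p = 0.047) and without replicate 2 of both DC groups (-1.48, adjusted p = 0.0368), but not without DC 8 h replicate 2 alone (-1.48, adjusted p = 0.37). Whether the difference between IF and DC changed from 8 h to 22 h was tested by the interaction, -0.70 (SE 0.75, adjusted p = 0.862), and no change was detected. Within DC, Gzmb changed by 0.94 (SE 0.52, adjusted p = 0.654) and Gzma by 0.48 (SE 0.33, adjusted p = 0.772) from 8 h to 22 h. Neither passed, and both genes were higher at 22 h in each same-numbered pair of DC libraries. Against unstimulated cells Gzmb passed in no comparison of the fit with all groups: -1.76 (SE 0.55, adjusted p = 0.0603) at IF 8 h, -1.52 (SE 0.53, adjusted p = 0.107) at IF 22 h, 0.49 (SE 0.52, adjusted p = 0.647) at DC 8 h and 1.44 (SE 0.53, adjusted p = 0.11) at DC 22 h. Without DC 22 h replicate 2 the last was 0.46 (adjusted p = 0.626), while without DC 22 h replicate 1 it was 1.83 and passed (adjusted p = 0.0441). It also passed when scaled by library size alone (1.78, adjusted p = 0.0367) and with no filter on low counts (1.45, adjusted p = 8.11e-07). The lower Gzmb with IF passed when each pair of groups was fitted alone (adjusted p = 0.000436 at 8 h and 0.00726 at 22 h) and with no filter on low counts (adjusted p = 3.88e-09 and 3.47e-07). The IF 22 h value was -1.81 (adjusted p = 0.478) without IF 22 h replicates 2 and 3.

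The count of Gzmb per count of Gzma in the same library needs no scaling between libraries and was read only from library to library, since the 2 genes' levels are not compared per length. It was 0.619, 0.334 and 0.423 in unstimulated cells, 0.520, 0.341 and 0.633 at IF 8 h and 0.329, 0.332 and 0.460 at IF 22 h. With DC it was 1.23, 4.60 and 1.01 at 8 h and 1.45, 8.24 and 1.10 at 22 h. Every DC library lay at 1.01 or more and every IF and unstimulated library at 0.633 or less, so DC libraries did not overlap the others. A lower Gzma raises this ratio as a higher Gzmb does. Gzma was lower in every DC library than in unstimulated cells. Gzmb overlapped, at 67.9 to 282 CPM (DC 8 h) and 110 to 591 CPM (DC 22 h) against 73.0 to 147 CPM. The ratio was chosen after the values were seen, so it is a description with no test.

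**Figure D2:**
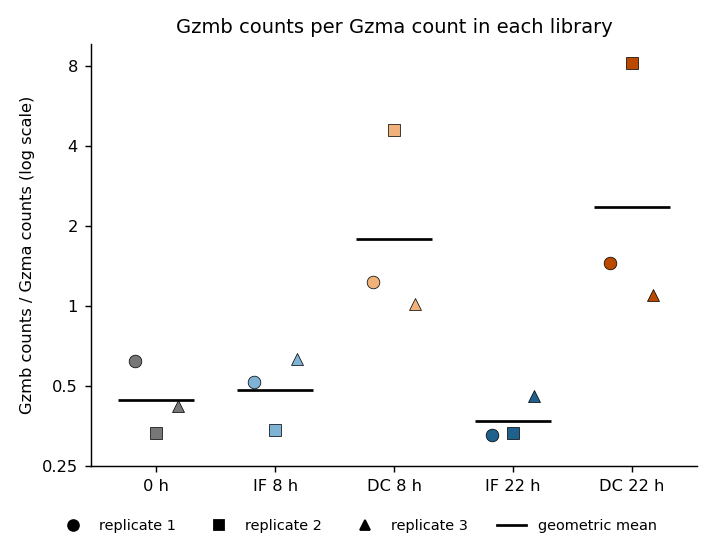
Gzmb counts per Gzma count in each of the 15 libraries (log axis), with the geometric mean of each group as a bar and a marker shape for each replicate number. The geometric means are 0.444 in unstimulated cells, 0.483 and 0.369 with IF at 8 h and 22 h, and 1.79 and 2.36 with DC, where replicate 2 lies highest at both times.

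Gzmc, a granzyme gene of the same cluster as Gzmb, was nearly silent except with DC. Its counts were 1, 1 and 0 in unstimulated libraries and 2, 0 and 3 at IF 8 h, against 41, 36 and 24 at DC 8 h. At 22 h they were 4, 0 and 13 with IF and 11, 20 and 21 with DC. In CPM the DC libraries stood at 3.52 to 4.47 at 8 h and 1.25 to 2.21 at 22 h, above every other library, the highest of which reached 0.804. By summed counts, 101 against 2, Gzmc was 33.7-fold higher at DC 8 h than in unstimulated cells, with an exact 95% interval of 9.08 to 282 that covers counting error only. The same ratio was 14.7 (3.86 to 124) at DC 22 h, 3.37 (0.551 to 35.4) at IF 8 h and 3.89 (0.923 to 34.7) at IF 22 h. Relative to IF, DC libraries had 10.0 times as much at 8 h (4.15 to 31.5) and 3.77 times at 22 h (2.14 to 6.95).

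The fitted fold change of Gzmc at DC 8 h, which depends on the prior count, was 4.92 (SE 1.13, adjusted p = 0.0135). The call was lost without any 1 of the 3 unstimulated libraries (adjusted p 0.0567, 0.0516 and 0.059 without replicates 1, 2 and 3). At DC 22 h the fitted value was 3.73 (SE 1.13, adjusted p = 0.0533). That value passed in 3 of 13 alternative runs (lowest adjusted p 0.0257), none of which left out a single library. The IF-DC difference was -3.28 (SE 1.01, adjusted p = 0.219) at 8 h and -2.08 (SE 0.89, adjusted p = 0.268) at 22 h. The latter was -1.84 without IF 22 h replicates 2 and 3. Leaving out replicate 3 of IF moved the IF-DC difference to -4.13 (adjusted p = 0.312) at 8 h and to -2.79 (adjusted p = 0.391) at 22 h. Dendritic cell markers stand beside Gzmb and Gzmc here. The 15 dendritic cell markers summed to 642 to 1534 CPM in unstimulated libraries, 211 to 465 at IF 8 h, 844 to 1232 at DC 8 h, 374 to 627 at IF 22 h and 465 to 632 at DC 22 h. Single markers differed in direction. Fscn1, an actin-bundling protein of mature dendritic cells, averaged 142 CPM at DC 8 h and 85.1 at DC 22 h against 0.489 and 23.7 with IF, and Zbtb46 was at 0 in unstimulated and IF 8 h libraries. Itgax was lower with DC, averaging 5.32 CPM at 8 h and 3.95 at 22 h against averages of 12.7 CPM or more in the other 3 groups. Xcr1 and H2-Ab1 averaged 24.1 and 228 CPM in unstimulated cells, above their averages in all 4 stimulated groups. The 3 plasmacytoid dendritic cell markers summed to 10.2 to 17.0 CPM at DC 8 h and 7.08 to 21.1 at DC 22 h, against 2.32 to 4.82 and 3.94 to 13.7 with IF and 6.02 to 10.0 in unstimulated cells. The part of these cells in the DC levels was not tested.

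**Figure D3:**
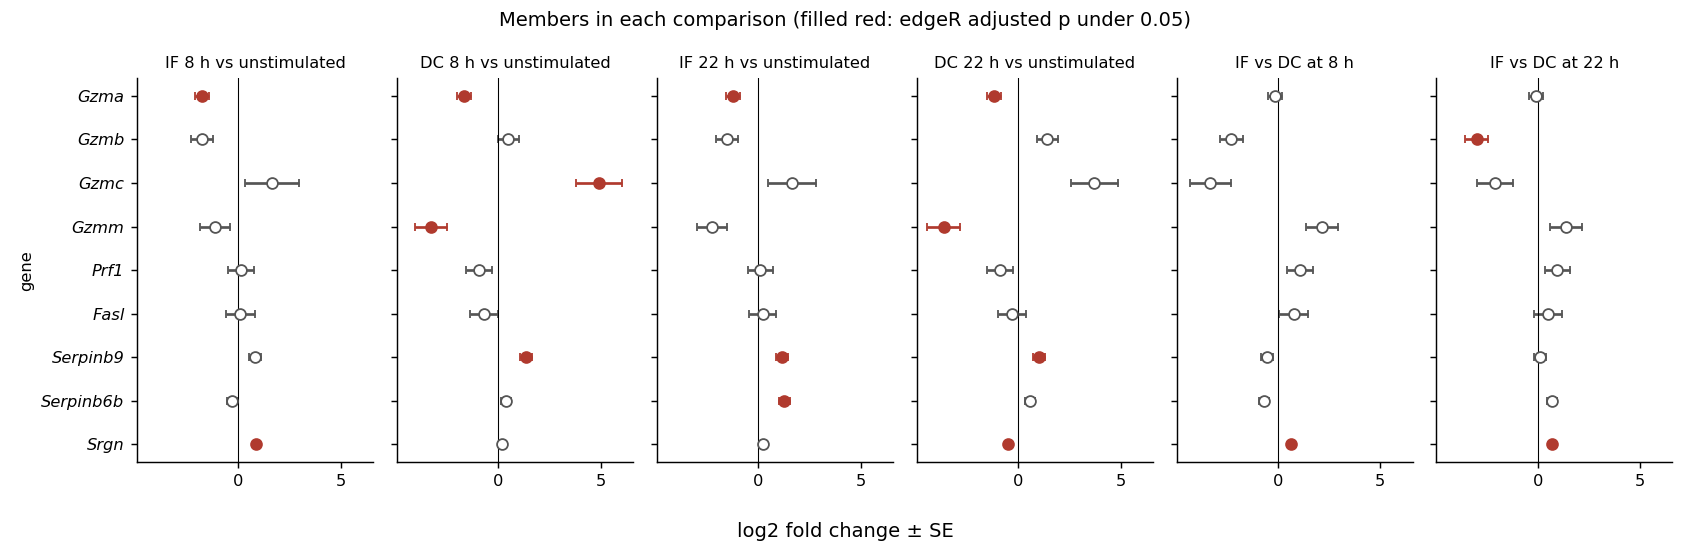
Log2 fold change ± SE of the 9 tested genes in each stimulated group against unstimulated cells and in IF against DC at each time, with filled red points for an edgeR adjusted p under 0.05. Gzma lies left of 0 in all 4 comparisons with unstimulated cells, and Gzmb lies at -2.26 and -2.96 in the IF-DC comparisons.

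Prf1, encoding perforin, was detected in every library at low counts, 7 to 77 a library. It stood at 4.40, 1.27 and 5.12 CPM in unstimulated cells, 1.96, 4.97 and 5.09 at IF 8 h and 1.39, 2.11 and 2.06 at DC 8 h. At 22 h it stood at 3.93, 3.70 and 3.93 CPM with IF and at 1.48, 0.774 and 3.59 with DC. At 22 h the 3 IF libraries lay above the 3 DC libraries, and at 8 h the groups overlapped. Prf1 passed in none of the 9 comparisons, with IF-DC differences of 1.09 (SE 0.65, adjusted p = 0.739) at 8 h and 0.96 (SE 0.62, adjusted p = 0.506) at 22 h.

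Fasl, the ligand of Fas, spread as widely within groups as between them. It stood at 5.58, 0.723 and 4.42 CPM in unstimulated cells, 3.39, 4.64 and 3.48 at IF 8 h, 1.78, 1.24 and 3.67 at DC 8 h, 2.26, 6.57 and 3.73 at IF 22 h and 1.37, 2.21 and 5.21 at DC 22 h. The unstimulated libraries alone covered most of that range, and Fasl passed in none of the 9 comparisons (4 to 73 counts a library). The IF-DC difference was 0.78 (SE 0.71, adjusted p = 0.894) at 8 h and 0.50 (SE 0.67, adjusted p = 0.794) at 22 h.

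Serpinb9, the granzyme B inhibitor, was higher in every stimulated library than in unstimulated cells. Unstimulated libraries stood at 26.0, 28.7 and 23.0 CPM. They were followed by 33.5, 42.1 and 62.7 at IF 8 h, 57.6, 82.6 and 57.3 at DC 8 h, 51.2, 59.0 and 64.1 at IF 22 h and 36.3, 83.2 and 41.2 at DC 22 h. Replicate 2 was the highest DC library at both times, as for Gzmb. The rise passed the test at DC 8 h (1.34, SE 0.30, adjusted p = 0.011), IF 22 h (1.16, SE 0.30, adjusted p = 0.028) and DC 22 h (1.04, SE 0.30, adjusted p = 0.0386), and the value at IF 8 h was 0.83 (SE 0.30, adjusted p = 0.108). The IF 8 h value passed in 3 of 13 alternative runs (lowest adjusted p 0.0241), none of which left out a single library. IF and DC did not differ beyond their spread (-0.52, SE 0.29, adjusted p = 0.715 at 8 h and 0.12, SE 0.29, adjusted p = 0.899 at 22 h). The DC 8 h call was lost without unstimulated replicate 3 (adjusted p = 0.0542) or DC 8 h replicate 2 (adjusted p = 0.0567), and the DC 22 h call without unstimulated replicate 1, 2 or 3 (adjusted p 0.106, 0.086 and 0.134) or DC 22 h replicate 2 (0.60, adjusted p = 0.198). The IF 22 h call held only when IF 22 h replicate 1 was the library left out (adjusted p up to 0.11 otherwise), and without IF 22 h replicates 2 and 3 together it was 0.98 (adjusted p = 0.404).

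Serpinb6b, an intracellular serpin, rose with IF between 8 h and 22 h. It stood at 71.3, 66.1 and 75.6 CPM in unstimulated cells, 68.7, 55.4 and 49.6 at IF 8 h and 139, 192 and 188 at IF 22 h. With DC it stood at 71.9, 106 and 97.8 CPM at 8 h and 70.1, 159 and 90.8 at 22 h. The IF 22 h libraries lay above all unstimulated and IF 8 h libraries, whereas DC 22 h replicate 2 reached into their range. The mean of 173 ± 29.3 CPM at IF 22 h was above the 71.0 ± 4.76 of unstimulated cells (1.29, SE 0.26, adjusted p = 0.00656) and the 57.9 ± 9.81 of IF 8 h (1.58, SE 0.26, adjusted p = 0.0083). Without IF 22 h replicates 2 and 3 these were 0.97 (adjusted p = 0.283) and 1.27 (adjusted p = 0.522), and the second was lost without IF 8 h replicate 3 (adjusted p = 0.056).

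Between IF and DC, Serpinb6b differed by -0.66 (SE 0.26, adjusted p = 0.446) at 8 h and 0.70 (SE 0.25, adjusted p = 0.175) at 22 h. The second passed without DC 22 h replicate 2 (1.09, adjusted p = 0.0114) and was 0.38 (adjusted p = 0.977) without IF 22 h replicates 2 and 3. The interaction, the IF-DC difference at 22 h minus that at 8 h, was 1.36 (SE 0.36, adjusted p = 0.382) and passed without IF 22 h replicate 1 (1.49, adjusted p = 0.0409). It was 1.05 (adjusted p = 1) without IF 22 h replicates 2 and 3. In that comparison 0 of the 9 members and 0% of all genes passed with edgeR, where the smallest adjusted p was 0.0819 and 858 genes had an unadjusted p under 0.05.

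Srgn, the gene of the granule proteoglycan serglycin, was abundant in every library and moved with IF at 8 h. It stood at 4325, 3904 and 4413 CPM in unstimulated cells and at 8234, 7132 and 7343 at IF 8 h. DC 8 h libraries stood at 4464, 5430 and 4491 CPM. At 22 h Srgn stood at 4516, 5276 and 5082 CPM with IF and at 3252, 2914 and 2912 with DC. The 3 IF 8 h libraries were above all others and the 3 DC 22 h libraries below all others. The rise at IF 8 h, from 4214 ± 272 to 7569 ± 585 CPM (0.85, SE 0.12, adjusted p = 0.000318), held in every alternative run. At DC 22 h the mean was 3026 ± 196 CPM (-0.48, SE 0.12, adjusted p = 0.0188), and scaled by library size alone, under which the median of all genes there was 0.37, the value was -0.15 (adjusted p = 0.361). That call was also lost without unstimulated replicate 1 (adjusted p = 0.0776), unstimulated replicate 3 (adjusted p = 0.093) or DC 22 h replicate 2 (adjusted p = 0.0593), and with no filter on low counts (adjusted p = 0.06).

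Between the stimuli, Srgn was the 1 tested member of 9 called at 8 h (0.665% of all genes; 0.231% higher and 0.434% lower with IF). At 22 h it was 1 of the 2 called, higher with IF beside the lower Gzmb (2.43% of all genes; 1.23% higher and 1.20% lower). It was higher with IF by 0.66 (SE 0.12, adjusted p = 0.0126) at 8 h and by 0.71 (SE 0.12, adjusted p = 0.00315) at 22 h. The 8 h call was lost without IF 8 h replicate 1 (adjusted p = 0.0838) or 3 (adjusted p = 0.0514) or DC 8 h replicate 1 (adjusted p = 0.0714) or 3 (adjusted p = 0.0788), and the 22 h call without IF 22 h replicates 2 and 3 together (0.58, adjusted p = 0.254). From 8 h to 22 h Srgn fell within IF by 0.61 on the log2 scale (SE 0.12, adjusted p = 0.0178) and within DC by 0.66 (SE 0.12, adjusted p = 0.0186). Serpinb6b, higher, and Srgn, lower, were the 2 members called within IF (1.12% of all genes; 0.637% higher and 0.480% lower). Srgn, lower, was the 1 called within DC (0.480% of all genes; 0.379% higher and 0.102% lower). The fall within IF was lost without IF 8 h replicate 1 or 3 or IF 22 h replicate 2 or 3 (adjusted p 0.0909, 0.0718, 0.0508 and 0.0791) and was -0.74 (adjusted p = 0.367) without IF 22 h replicates 2 and 3. Within DC it was lost without replicate 1 or 2 of either time (adjusted p 0.0525 and 0.067 for DC 8 h, 0.0607 and 0.0591 for DC 22 h).

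Other genes of granule biology, from lists chosen with earlier results of these data known, were counted in the same fits. Against unstimulated cells, 3.04% of all genes were called higher and 4.72% lower at IF 8 h, and 2.75% and 4.07% at DC 8 h. At 22 h these shares were 2.63% and 3.44% with IF and 3.41% and 4.35% with DC. Of 11 genes of granule cargo and processing, 1 rose and 4 fell at IF 8 h, 2 rose and 4 fell at DC 8 h, 0 rose and 2 fell at IF 22 h, and 0 rose and 4 fell at DC 22 h. The 4 that fell were Nkg7, a granule membrane protein gene, Ctsw, a cathepsin of cytotoxic cells, Cst7, an inhibitor of cathepsins that process granzymes, and Ctsb, a lysosomal cathepsin. Nkg7 averaged 583 ± 70.0 CPM in unstimulated cells, 139 ± 1.71 at IF 8 h (-2.07, SE 0.25, adjusted p = 7.36e-05) and 223 ± 89.8 at DC 8 h (-1.39, SE 0.24, adjusted p = 0.00196). Ctsw went from 226 ± 12.9 to 62.6 ± 3.87 CPM at IF 8 h (-1.85, SE 0.16, adjusted p = 3.18e-06) and to 103 ± 6.11 at DC 8 h (-1.14, SE 0.16, adjusted p = 0.000267). Cst7 changed by -1.23 and -1.09 and Ctsb by -1.16 and -0.95 at IF 8 h and DC 8 h. These 8 h calls held in every alternative run.

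At 22 h with DC the same 4 genes were lower (log2 fold changes of -1.10 for Nkg7, -0.75 for Ctsw, -0.81 for Cst7 and -0.81 for Ctsb), and Cst7's call was lost without unstimulated replicate 1 or 2 or DC 22 h replicate 1 or 3 (adjusted p 0.0692 to 0.0936). Scaled by library size alone, Ctsw, Ctsb and Cst7 at DC 22 h did not pass (adjusted p 0.0625, 0.0564 and 0.111). With IF at 22 h only Ctsw (-0.93, SE 0.15, adjusted p = 0.00161) and Ctsb (-0.60, SE 0.17, adjusted p = 0.0423) passed, Ctsb not without any 1 of its 6 libraries (adjusted p up to 0.167). Ctsw was -1.23 (adjusted p = 0.0175) and Ctsb -0.81 (adjusted p = 0.185) without IF 22 h replicates 2 and 3. From 8 h to 22 h with IF, Nkg7 (1.27), Ctsw (0.93), Cst7 (1.29) and Ctsh (3.73) rose. The alternatives other than leaving out a single library include the fit without IF 22 h replicates 2 and 3, which keeps 1 library there. Over them the values went as low as 1.05, 0.62, 1.12 and 2.46, in the same order. None of the 4 passed without IF 8 h replicate 3 (adjusted p 0.0508 to 0.167). Ctsw, Nkg7 and Ctsh also lost the call without IF 22 h replicate 2 (adjusted p 0.0508, 0.0822 and 0.152) or 3 (adjusted p 0.0656, 0.0758 and 0.154), and Nkg7 and Ctsh without IF 8 h replicate 1 (adjusted p 0.0721 and 0.175) or 2 (adjusted p 0.0568 and 0.0934). Summed T cell markers went from 4181 to 4248 CPM at IF 8 h to 4862 to 5678 CPM at IF 22 h. Natural killer cell markers went from 12.3 to 16.6 CPM to 18.6 to 25.7 CPM, and dendritic cell markers overlapped (211 to 465 and 374 to 627 CPM). The part of these cells in the rise of the 4 genes was not tested. Cst7 was higher with IF than DC at 22 h (78.5 ± 8.45 against 42.8 ± 8.67 CPM; 0.88, SE 0.20, adjusted p = 0.0295), a call lost without IF 22 h replicate 2 (adjusted p = 0.154) or 3 (adjusted p = 0.123) or DC 22 h replicate 1 (adjusted p = 0.116) or 3 (adjusted p = 0.0967), and 0.70 (adjusted p = 0.853) without IF 22 h replicates 2 and 3. Natural killer cell markers (18.6 to 25.7 CPM at IF 22 h and 2.77 to 12.1 at DC 22 h) and the 4 B cell markers (18.3 to 34.5 and 4.76 to 12.5 CPM) were also higher with IF at 22 h in every library, and their part in Cst7, and in Sytl2 and Eomes below, was not tested. The genes that rose at 8 h were Lamp2, a lysosomal membrane protein gene (0.76 with IF and 1.03 with DC), and with DC also Ctsh, encoding cathepsin H (2.42); both were named after their values were seen. Lamp2 with IF lost its call without unstimulated replicate 1 or 3 or IF 8 h replicate 1 or 2 (adjusted p 0.108 to 0.142), and Ctsh with DC without unstimulated replicate 1 or 2 or any DC 8 h library (adjusted p 0.07 to 0.149), and was 3.90 (adjusted p = 0.00427) without unstimulated replicate 3. Ctsh stood at 9.19 to 12.6 CPM in DC 8 h libraries and at 0.178 to 0.663 in IF 8 h libraries (-4.70, SE 0.85, adjusted p = 0.0135), lost without IF 8 h replicate 1 (adjusted p = 0.0927) or 3 (adjusted p = 0.0676). The dendritic cell markers Fscn1 (142 against 0.489 CPM) and Ccl22 (14.3 against 1.29 CPM) were also higher on average at DC 8 h than at IF 8 h, and than in unstimulated cells (2.31 and 0.0489 CPM). Other markers of that list went the other way, with Itgax (5.32 CPM) and Xcr1 (2.86 CPM) lower on average at DC 8 h than in both. The part of dendritic cell RNA in Ctsh, and in Stx11, Fas, Stat5a and Batf at DC 8 h below, was not tested. Ctsw was lower at IF 8 h than at DC 8 h (-0.71, SE 0.16, adjusted p = 0.0472), a call lost without any 1 of these 6 libraries (adjusted p 0.0862 to 0.218). The list's median against unstimulated cells was -0.38 (8 h) and -0.12 (22 h) with IF and -0.04 (8 h) and -0.25 (22 h) with DC.

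**Figure D4:**
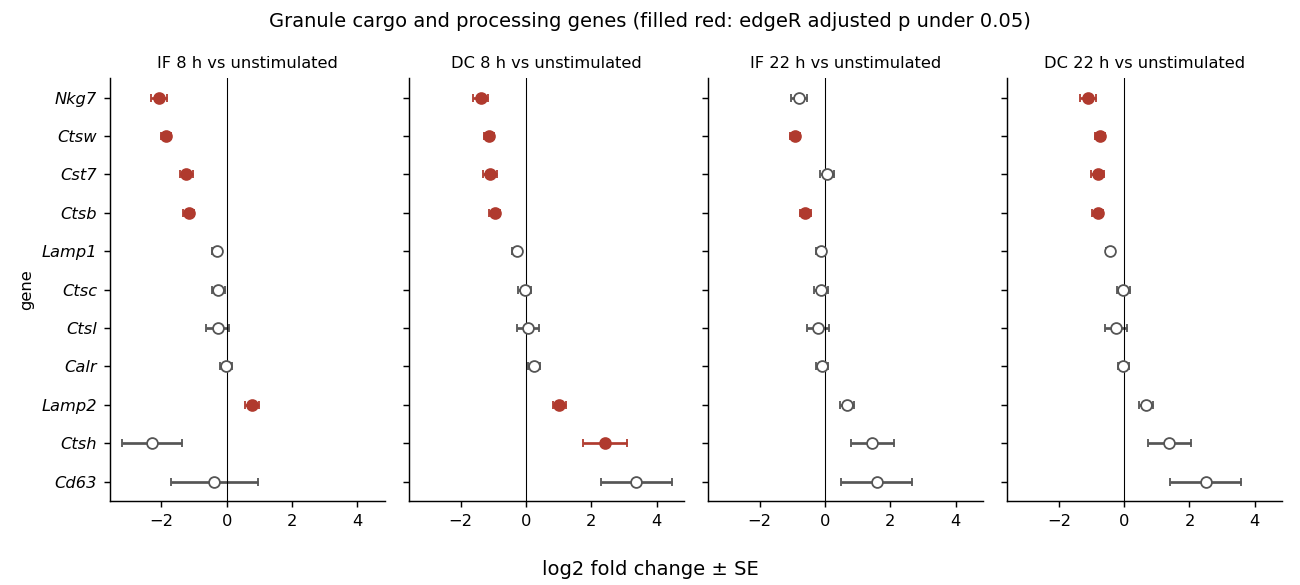
Log2 fold change ± SE of the 11 granule cargo and processing genes in each stimulated group against unstimulated cells, with filled red points for an edgeR adjusted p under 0.05. Nkg7, Ctsw, Cst7 and Ctsb lie left of 0 in both 8 h panels and at DC 22 h, and Lamp2 lies right of 0 in the 8 h panels.

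Of 13 genes of granule traffic and exocytosis, 11 were tested and 0 fell in any comparison with unstimulated cells. Stx11, a syntaxin needed for granule release, was the 1 that rose, from 2.24 ± 2.28 to 19.7 ± 6.94 CPM at DC 8 h (3.04, SE 0.63, adjusted p = 0.00673), in every alternative run, and by 4.06 (adjusted p = 0.00558) without unstimulated replicate 1. Sytl2, a Rab27 effector, was higher with IF than DC at 22 h, at 8.33, 5.74 and 8.78 against 2.62, 1.44 and 2.14 CPM (1.88, SE 0.45, adjusted p = 0.0356), and lost the call without IF 22 h replicate 2 (adjusted p = 0.0749) or 3 (adjusted p = 0.165) or any DC 22 h library (adjusted p 0.0769 to 0.107). Without IF 22 h replicates 2 and 3 it was 2.00 (adjusted p = 0.465). Of 13 further serpins 8 were in the tables and 4 were tested, with 0 called in any comparison. Apart from the comparison of transcript ends above, the remaining 5 granzymes of the Gzmb cluster, Gzmd to Gzmg and Gzmn, were not analysed here. Among 10 genes of the death receptor pathway, 1 rose and 1 fell at DC 8 h and 0 changed in the other groups against unstimulated cells. Fas, the receptor of Fas ligand, went from 9.68 ± 2.75 to 25.6 ± 5.51 CPM (1.39, SE 0.31, adjusted p = 0.0113), and Tnfsf10, encoding the death ligand TRAIL, from 18.4 ± 1.14 to 6.87 ± 0.771 CPM (-1.42, SE 0.33, adjusted p = 0.0156). The call for Fas was lost without unstimulated replicate 3 (adjusted p = 0.0586) or DC 8 h replicate 2 (adjusted p = 0.0534), and that for Tnfsf10 without unstimulated replicate 1 (adjusted p = 0.0543) or DC 8 h replicate 2 (adjusted p = 0.07). Cflar, encoding an inhibitor of caspase-8 activation, fell from IF 8 h to IF 22 h (group means of 86.3 and 43.6 CPM; -0.99, SE 0.23, adjusted p = 0.0467), lost without IF 8 h replicate 1 or 3 or IF 22 h replicate 2 or 3 (adjusted p 0.13 to 0.263) and without both of the latter (-0.71, adjusted p = 0.895).

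Of 14 transcription factors known to regulate cytotoxic genes, 3 rose at IF 8 h, 4 rose and 1 fell at DC 8 h, 2 rose and 1 fell at IF 22 h, and 1 rose and 1 fell at DC 22 h. Eomes, a T-box factor of cytotoxic and memory cells, averaged 69.4 ± 3.82 CPM in unstimulated cells, 265 ± 62.8 at IF 8 h (1.93, SE 0.33, adjusted p = 0.00164) and 275 ± 30.4 at IF 22 h (1.99, SE 0.33, adjusted p = 0.00153). At DC 8 h Eomes also rose, to 152 ± 62.3 CPM (1.13, SE 0.32, adjusted p = 0.0431), a value named after it was seen. That call was lost without unstimulated replicate 1, 2 or 3 (adjusted p 0.107 to 0.129) or DC 8 h replicate 1 or 2 (adjusted p 0.0943 and 0.211), and with the replicate number as a block (adjusted p = 0.0543). At DC 22 h it stood at 67.2 ± 34.5 CPM, below IF 22 h (2.04, SE 0.33, adjusted p = 0.00249). Without IF 22 h replicates 2 and 3, Eomes at 22 h was 1.80 against unstimulated cells (adjusted p = 0.0664) and 1.84 against DC (adjusted p = 0.147). Bach2, a repressor that restrains effector genes, rose in all 4 comparisons with unstimulated cells, by 1.68 (8 h) and 0.94 (22 h) with IF and by 1.32 (8 h) and 1.11 (22 h) with DC. Without IF 22 h replicates 2 and 3 its value at IF 22 h was 1.48 (adjusted p = 0.00729). The call was lost without unstimulated replicate 2 or 3 or IF 22 h replicate 1 or 2 at IF 22 h (adjusted p up to 0.127), and without unstimulated replicate 3 at DC 22 h (adjusted p = 0.0501).

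The other factors that rose at DC 8 h were Stat5a, a transducer of interleukin-2 signals, and Batf, an AP-1 family factor. Stat5a went from 27.8 ± 2.35 to 55.7 ± 14.8 CPM (1.00, SE 0.25, adjusted p = 0.0227), lost without any 1 unstimulated library or DC 8 h replicate 2 (adjusted p 0.0562 to 0.124). Batf went from 21.3 ± 3.69 to 37.1 ± 7.57 CPM (0.80, SE 0.20, adjusted p = 0.0244), lost without unstimulated replicate 1 or 2 or DC 8 h replicate 2 (adjusted p 0.0702 to 0.134), with no filter on low counts (adjusted p = 0.0661) and with these groups alone in the fit (adjusted p = 0.0584). Batf was also lower at IF 8 h than at DC 8 h (-0.96, SE 0.21, adjusted p = 0.0425), a call lost without any 1 of the 6 libraries (adjusted p 0.0654 to 0.182).

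Zeb2, which promotes terminal effector cells, fell in both DC comparisons with unstimulated cells, from 10.5 ± 2.14 CPM to 1.53 ± 0.0734 at 8 h (-2.77, SE 0.46, adjusted p = 0.00135) and 1.38 ± 0.650 at 22 h (-2.92, SE 0.45, adjusted p = 0.000975). The IF-DC difference itself was 2.15 (SE 0.46, adjusted p = 0.0387) at 8 h and 2.14 (SE 0.45, adjusted p = 0.0168) at 22 h. The 8 h difference was lost without IF 8 h replicate 2 or 3 or any DC 8 h library (adjusted p 0.124 to 0.197), and the 22 h difference without IF 22 h replicate 2 (adjusted p = 0.0795) or 3 (adjusted p = 0.0515), and without both it was 1.94 (adjusted p = 0.452). Natural killer cell markers were likewise higher with IF than DC in every library at 8 h (12.3 to 16.6 against 8.81 to 10.7 CPM) and 22 h, B cell markers at 22 h, and Itgax on average at both times; their part in Zeb2 was not tested. Runx3, whose family binds the TGTGGT letters searched above, was lower with IF than DC at 22 h, at 41.7 ± 20.8 against 136 ± 24.3 CPM (-1.72, SE 0.28, adjusted p = 0.00315). IF 22 h replicate 1 stood at 65.1 CPM and replicates 2 and 3 at 34.7 and 25.3, and without the latter pair the value was -1.07 (adjusted p = 0.349). Against the 87.6 ± 3.66 CPM of unstimulated cells Runx3 fell at IF 22 h (-1.08, SE 0.28, adjusted p = 0.0306). That call held without IF 22 h replicate 1 (-1.55, adjusted p = 0.000661), was lost without any other of its 6 libraries (adjusted p 0.082 to 0.14) and scaled by library size alone (adjusted p = 0.0863), and was -0.43 (adjusted p = 0.69) without IF 22 h replicates 2 and 3. Notch1, encoding a receptor that acts on transcription, was lower with IF than DC at 22 h (39.5 ± 6.42 against 70.8 ± 4.25 CPM; -0.84, SE 0.19, adjusted p = 0.024), lost without IF 22 h replicate 2 or 3 or DC 22 h replicate 1 (adjusted p 0.0918 to 0.157), and -0.65 (adjusted p = 0.862) without both of these IF libraries. Irf4, which T cell receptor signals raise, went from 11.9 ± 1.87 to 131 ± 28.0 CPM at IF 8 h (3.47, SE 0.77, adjusted p = 0.0115), lost without unstimulated replicate 1 (adjusted p = 0.0567) or 2 (adjusted p = 0.0539). In DC libraries Irf4 was highest in replicate 2, at 128 CPM against 41.8 and 27.6 at 8 h and at 57.5 against 6.37 and 4.19 at 22 h. Tbx21, the T-box factor T-bet, was likewise highest in replicate 2 (40.7 against 9.31 and 10.7 CPM at 8 h, 19.8 against 7.74 and 13.1 at 22 h), and these are the libraries with the highest Gzmb.

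**Figure D5:**
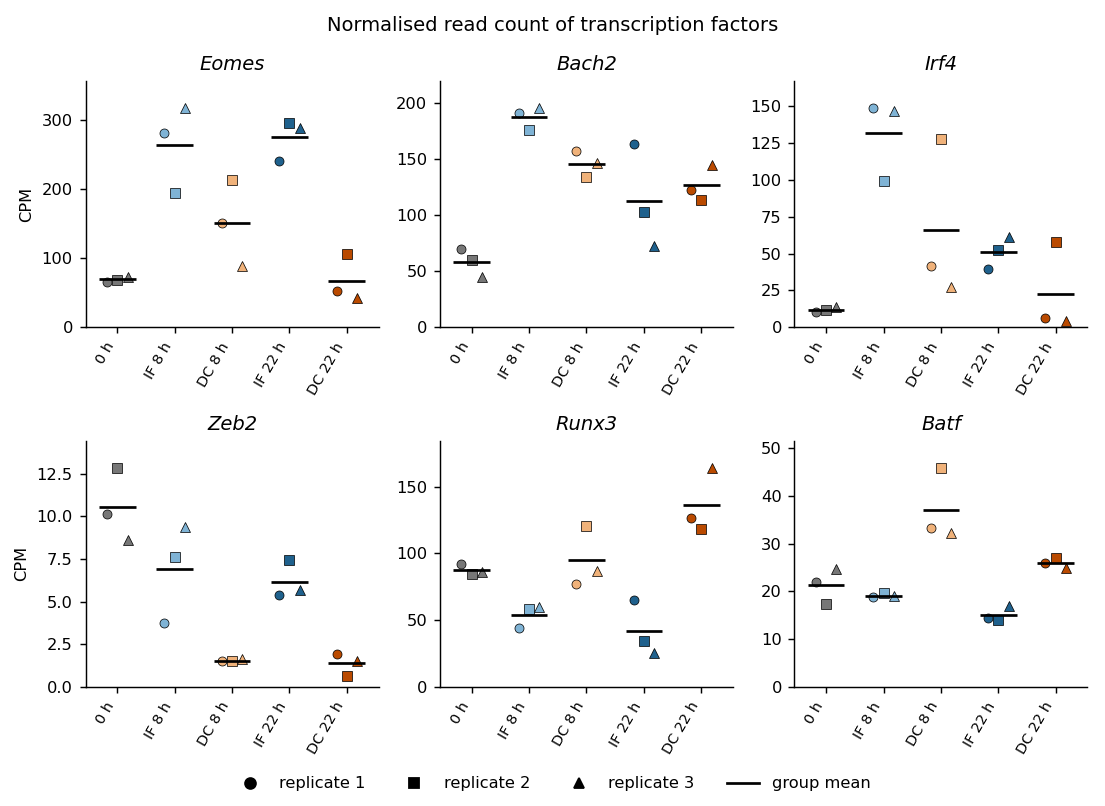
Normalised read count (CPM, linear axis from 0) of 6 transcription factors in each of the 15 libraries, with group means as bars and a marker shape for each replicate number. Eomes is at 195 CPM or more in every IF library, Zeb2 is at most 1.93 CPM in every DC library, and Irf4 is highest in replicate 2 among DC libraries.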

How the data were processed

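RNA of sorted T cells was measured in 15 libraries. Per the labels' protocols, the authors used an adapted CEL-seq method, in which transcripts are primed and barcoded at their poly(A) end and amplified by in vitro transcription. The submitters' processing notes name BWA and mm10; annotation, counting program, and the use of strand and of molecular identifiers are not given in the sources used here. The deposited values are whole-number read counts per gene, without normalization, for 17493 genes, 370 of them without a count. Amplified reads need not be independent molecules, so intervals cover counting error only.

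Counts were fitted in R 4.3.3 with edgeR 4.0.16 (quasi-likelihood, TMM, filterByExpr with a minimum count of 10 and total of 15, 10831 genes kept, prior count 0.125), with 5 group means over all 15 libraries, two-sided tests and Benjamini-Hochberg adjustment within each of 9 comparisons. Pairs of replicates differed by 9.50 to 98.1 times counting error (chi-square per degree of freedom), so no pair agreed within counting error. Alternatives were DESeq2 1.42.0 or its size factors, library size alone, other filters, only the groups compared, the replicate number as a block, and libraries left out. Leaving out replicate 2 of both DC groups, and the ratio of Gzmb to Gzma counts, were chosen after seeing the data.

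The deviations of same-numbered DC 8 h and DC 22 h libraries from their group means correlated in all 3 pairs (0.116, 0.399 and 0.238). Those libraries were therefore taken as paired by their numbers, which the labels do not state. Over all groups 4 of 30 pairs exceeded 0.1, the other being replicate 1 of DC 8 h and IF 22 h (0.115). Within DC, the block changed no member's call. The members, gene lists and markers were chosen with earlier results of these data known. All members are named. Of each list at most 4 genes a comparison, those with the smallest p-value, are named, besides those said to be chosen after their values were seen. Promoters came from RefSeq (all 10 symbols matched).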

Additional observations from a re-analysis of the deposited data

Results flagged for a closer look

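Among the members, 3 results differed between the stimuli by a test of the difference itself, which 0.665% of all genes passed at 8 h and 2.43% at 22 h. Srgn was higher with immunofilaments than with dendritic cells at 8 h, by 0.66 on the log2 scale (SE 0.12, edgeR adjusted p = 0.0126), and at 22 h, by 0.71 (SE 0.12, adjusted p = 0.00315). Gzmb was lower with immunofilaments at 22 h, with a log2 fold change of -2.96 (SE 0.56, adjusted p = 0.00804). The 3 libraries of one stimulus did not overlap those of the other in these comparisons. They also did not overlap in results not called, Gzmb, Gzmc and Serpinb6b at 8 h and Gzmc and Prf1 at 22 h. The Srgn call at 8 h was lost without replicate 1 or 3 of IF 8 h or DC 8 h. Gzmb at 22 h was lost without IF 22 h replicate 2, and both 22 h calls with only these groups in the fit. Without IF 22 h replicates 2 and 3, which leaves 1 library there, the 22 h values were -3.25 (Gzmb) and 0.58 (Srgn).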

How the results depend on the processing

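Among members' results with an unadjusted p under 0.05, no value reversed its direction in any alternative run. Of 263 alternative values for the 19 called results of members, 199 kept the call and 64 lost it; of 198 for the 14 results with an unadjusted p under 0.05 that were not called, 28 passed the threshold. Fitting just the compared groups, members called numbered 4 (8 h) and 5 (22 h) for IF and 2 for DC at 22 h against unstimulated cells, 2 and 0 for IF against DC at 8 h and 22 h, and 1 and 0 for 22 h against 8 h within IF and within DC. The calls so lost were Gzma and Serpinb9 at DC 22 h, Gzmb and Srgn for IF against DC at 22 h, and Srgn within IF and within DC (adjusted p 0.0577 to 0.222). Over all genes these fits called 1299 of 9454, 993 of 10005, 517 of 10082, 47 of 9742, 70 of 10189, 100 of 9850 and 0 of 10182, in the same order. With no low-count filter they numbered 4 at IF 8 h, 5 at IF 22 h, 2 for IF against DC at 8 h, 2 within DC and 1 for the interaction, and over all 17123 genes 1167, 1101, 215, 251 and 155. A mean of at least 10 CPM left 2 at DC 8 h (670 of 6952 genes passed). Gzma and Serpinb9 kept their calls there, and Gzmc and Gzmm fell below that filter and were not tested. DESeq2 called 2 for IF against DC at 8 h (184 of 11800 genes). Without IF 22 h replicates 2 and 3 the count was 0 in each of the 3 comparisons with that group, not counting the interaction, where 99 (against unstimulated cells), 8 (against DC) and 0 (against IF 8 h) of 11889 genes passed at all. Without replicate 2 of both DC groups it was 2 at DC 22 h, 2 for IF against DC at 8 h and 0 within DC (700, 98 and 19 of 11122 genes). Leaving out 1 library at a time gave 2 in every fit at IF 8 h, 2 to 4 at DC 8 h, 1 to 2 at IF 22 h, 1 to 4 at DC 22 h, 0 to 1 and 1 to 3 for IF against DC at 8 h and 22 h, 0 to 2 within IF, 0 to 1 within DC and 0 to 1 for the interaction. Of the 11131 to 11206 genes tested, these fits called 419 to 573 at IF 8 h and 283 to 947 at IF 22 h. With DC they called 404 to 665 at 8 h and 454 to 984 at 22 h. For IF against DC the counts were 27 to 52 at 8 h and 90 to 759 at 22 h. They were 24 to 541 within IF, 1 to 138 within DC and 0 to 279 for the interaction.

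Over all genes, counts of calls (lowest to highest alternative) were 840 (419 to 1299) and 658 (99 to 1101) for IF, and 739 (404 to 1157) and 840 (454 to 1586) for DC, at 8 h and 22 h against unstimulated cells. They were 72 (27 to 215) and 263 (8 to 759) for IF against DC at 8 h and 22 h, 121 (0 to 541) within IF, 52 (0 to 251) within DC and 0 (0 to 279) for the interaction. With the replicate number as a block, Gzmb at IF 8 h passed (-1.83, adjusted p = 0.0439) and no other member's call changed; outside the DC groups the numbers are shared labels, and 9 of 15 libraries correlated best with their own number. Among listed genes the block lost the calls of Eomes at DC 8 h, Ctsb at IF 22 h, Ctsw, Zeb2 and Batf for IF against DC at 8 h and Ctsh within IF (adjusted p 0.0512 to 0.071). Fitting just the compared groups lost the calls of Lamp2 at IF 8 h, Batf at DC 8 h, Bach2 and Runx3 at IF 22 h, Cst7 at DC 22 h, Ctsw, Zeb2 and Batf for IF against DC at 8 h, Cst7, Sytl2, Runx3, Zeb2 and Notch1 for IF against DC at 22 h, and Ctsh and Cflar within IF (adjusted p 0.0569 to 0.163). Library size alone also lost Ctsb at IF 22 h (adjusted p = 0.144) and, for IF against DC at 22 h, Cst7 (0.0622) and Sytl2 (0.0506). With no low-count filter Lamp2 at IF 8 h, Ctsb at IF 22 h, Batf at DC 8 h, and Ctsw and Batf for IF against DC at 8 h were lost (adjusted p 0.0529 to 0.129). Gzmc, Gzmk, Gzmm, Prf1 and Fasl rest on few counts, and differences in them are limited by depth. The causes of these changes were not tested, other than fewer libraries or genes in a fit.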

Other observations

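Outside the members, the genes whose pattern over the 15 libraries was most like that of Gzmb were Gadd45g, a stress-response gene, Bhlhe40, a transcription factor induced by T cell activation, and Gm19705. The 6949 candidates were the tested genes outside the members with a mean of at least 10 CPM over the 15 libraries. Likeness was the root-mean-square difference between log2 CPM values, each centred on its own mean. It was 0.57, 0.74 and 0.83 for Gadd45g, Bhlhe40 and Gm19705, beside 1.26 for Gzmb against its own mean. Gadd45g averaged 19.3 ± 0.319 CPM in unstimulated cells, 4.12 ± 1.03 and 5.36 ± 0.525 at IF 8 h and 22 h, and 31.2 ± 15.4 and 29.9 ± 9.93 at DC 8 h and 22 h. Bhlhe40 averaged 7.98 ± 1.36 CPM in unstimulated cells, 4.14 ± 1.31 and 3.60 ± 0.614 with IF and 29.5 ± 19.3 and 14.0 ± 6.94 with DC. For Prf1 the nearest were Nr1d2 (0.48), Zxda (0.49) and Klrg1 (0.50), beside 0.75 for Prf1 itself. Klrg1, a receptor of effector T cells and natural killer cells, averaged 14.6 ± 5.84 CPM in unstimulated cells, 13.6 ± 3.88 and 11.1 ± 2.58 with IF and 5.40 ± 0.669 and 5.97 ± 1.03 with DC. For Serpinb9 they were Slirp (0.26), Mrps10 (0.27) and Sept2 (0.27), beside 0.56 for Serpinb9 itself. Slirp, a mitochondrial RNA-binding protein gene, averaged 71.6 ± 1.66 CPM in unstimulated cells and 114 to 136 CPM in the stimulated groups. These are descriptions over libraries that share groups and depth, with no test.

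Klf2, a factor of quiescent T cells, was lowest in DC replicate 2 at both times, at 510 CPM against 770 and 962 at 8 h and at 290 against 757 and 807 at 22 h. In the same 2 libraries Gzmb, Serpinb9 and Serpinb6b were the highest of their groups.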
